A study of Mus musculus with 4 samples.

Results

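The nuclear genes for the subunits of the mitochondrial respiratory chain and ATP synthase were followed in primary chondrocytes (cartilage cells) of the mouse, with and without a Cre that deletes Tiki2. Members were chosen by gene symbol alone: Nduf genes of the a, ab, b, c, s and v series (complex I), Sdha to Sdhd (complex II), Uqcr genes (complex III), Cox4 to Cox8 genes (complex IV) and Atp5 genes (complex V), with at least 10 counts in at least 2 libraries and without symbols that carry the pseudogene suffix -ps, numbered or not. Of the 25239 symbols counted, 89 matched, and 84 were kept, with 39 genes of complex I, 4 of complex II, 8 of complex III, 16 of complex IV and 17 of complex V. The 5 symbols left out were Ndufs5-ps, Cox8c, Cox7b2, Ndufa11b and Cox7c-ps1. Cox8c, Cox7b2 and Ndufa11b were at 0 in all 4 libraries. Cox7c-ps1, with 8, 13, 21 and 10 counts, met the count minimum and was left out for its numbered suffix, although the symbol does not end in -ps. Ndufb4c, which has no such suffix, was kept although GENCODE M21 lists it as a processed pseudogene. Just inside the minimum were Cox7a1, with 18, 24, 19 and 24 counts, and Cox8b, with 10, 19, 41 and 26 counts, each in the order control replicates 1 and 2, then cKO replicates 1 and 2, which is kept below. Symbols follow the older names in the table, so that Atp5b, for example, is the gene now called Atp5f1b.

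The control group was 2 libraries of cells from Tiki2 fl/fl mice. The conditional knockout (cKO) group was 2 libraries of cells from Tiki2 fl/fl mice that also carry Col2a1-Cre/ERT, a Cre driven by a cartilage collagen promoter that acts only in cells that use that promoter and only once tamoxifen is given. All 4 received 4-hydroxytamoxifen, and poly(A) RNA was sequenced. Only the cKO cells carry the Cre, so that loss of Tiki2 and the Cre itself cannot be told apart.

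The respiratory chain passes electrons from NADH (complex I) or succinate (complex II) through ubiquinone to complex III, then through cytochrome c to complex IV, which reduces oxygen. Complexes I, III and IV pump protons, and complex V, ATP synthase, uses the proton gradient to make ATP. Most subunits are nuclear genes translated in the cytosol and imported. A few core subunits are encoded by mitochondrial DNA and were not analysed here. Cartilage has no blood vessels and little oxygen, and chondrocytes are known to draw much of their ATP from glycolysis.

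The control libraries held 66750140 and 77285899 counts and the cKO libraries 76425194 and 78873054. The labels do not state whether the 2 libraries of a group are different animals or cultures. All p-values therefore cover only the differences among these 4 libraries, which may be technical. Control replicate 1 stood apart in sex, with 112185 counts of Xist and 0 of Ddx3y, against 36 to 171 and 11073 to 12085 in the other libraries. Unless stated, CPM are counts scaled by library size and by edgeR's TMM factors, which are described below. For Tiki2 itself, listed as Trabd2b, the control libraries stood at 436 and 415 CPM, against 292 and 363 CPM for the cKO libraries. Its log2 fold change was -0.38 ± 0.11 (SE) with an edgeR adjusted p of 0.148. The targeted transcript was thus lower in both cKO libraries without passing the test. All 8 chondrocyte markers were detected and had negative log2 fold changes. Of the 8, 7 were called lower by edgeR, against 0.908% of all tested genes, and Sox9 was not (-0.38, edgeR adjusted p = 0.151). The summed level of the 8 was 22670 and 26810 CPM in controls against 12430 and 8898 CPM in cKO. All 6 fibroblast genes had positive log2 fold changes. Of these, Col1a1 and Col3a1 were called higher by edgeR, against 0.393% of all tested genes. DESeq2 called 4 of the 6 higher and limma-voom 2, against 3.57% and 0.683%. The part of these shifts in the results below was not tested. In bulk RNA, fewer cells of a type and less RNA per cell cannot be told apart.

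Respiratory chain genes were abundant in these cells. Levels are compared between genes as CPM per kilobase of a representative transcript, with CPM scaled by edgeR's TMM factors, which remove overall composition differences between libraries. The median member stood at 48.3 CPM per kilobase, against 6.45 for the 15366 tested genes with a length, and 80 of the 84 members lay above the latter. Together the 84 genes took 0.540% and 0.523% of all counts in controls and 0.537% and 0.556% in cKO, so the groups overlapped. By complex, the median level was 32.8 CPM per kilobase in complex I, 47.7 in complex II, 54.8 in complex III, 69.6 in complex IV and 84.3 in complex V. Ndufa4l2 was highest at 364 CPM per kilobase, followed by Atp5b at 302, Cox4i1 at 230 and Cox6a1 at 198. The lowest levels were those of 4 complex IV forms known from muscle or testis: Cox6a2 at 2.13, Cox6b2 at 1.44, Cox8b at 0.87 and Cox7a1 at 0.72 CPM per kilobase. Per-length levels depend on the transcript chosen, and those of Atp5g1, Ndufab1 and Sdhc rest on transcripts of 4715, 3479 and 3171 bases, which would understate a gene expressed mainly as a shorter form.

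**Figure D1:**
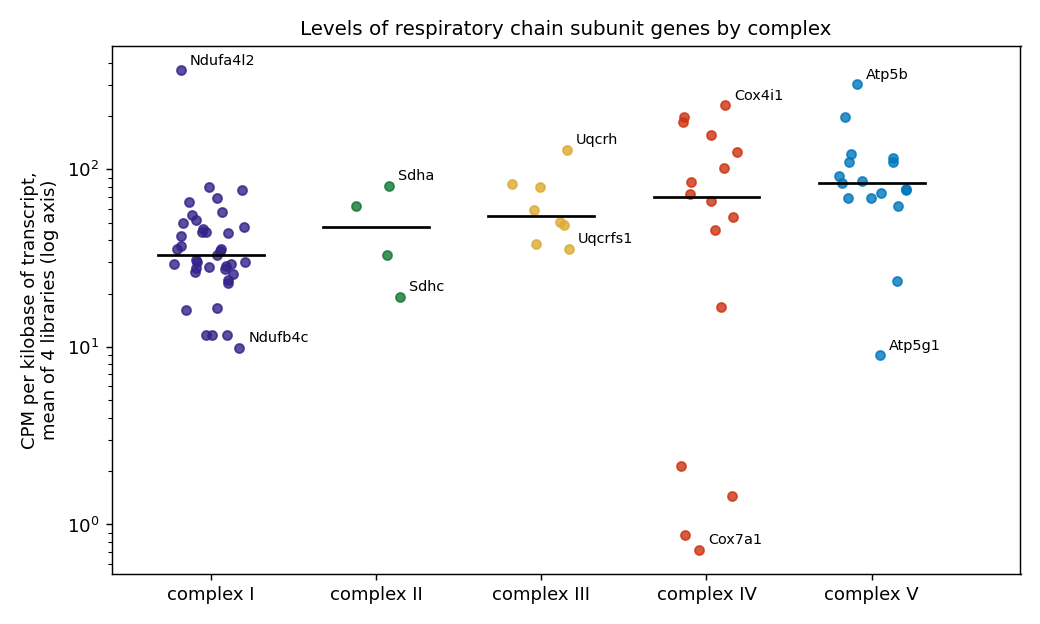
Each point is 1 of the 84 genes, plotted by complex at its mean CPM per kilobase over the 4 libraries (log axis), and black bars are medians. The medians run from 32.8 in complex I to 84.3 in complex V, Ndufa4l2 is highest at 364, and 4 complex IV forms lie between 0.72 and 2.13.

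Many promoters of respiratory chain genes are known targets of NRF1, of the ETS factor GABP and of YY1, which bind the promoters of housekeeping and mitochondrial genes. RefSeq promoter windows (250 bases before and 50 after the gene start, GRCm38.p6) were held for 68 of the 84 members, the 16 without an entry including Ndufa4l2 and Cox4i2. In all, 7 motifs were searched on both strands, and a gene counts if any of its windows holds the letters. Counted this way, genes with more than 1 window (5 of the 68 members, 15.4% of all genes) have more chances. Sequences are given for the 250 upstream bases of 1 member of each complex, the one whose upstream bases hold the most of the NRF1, ETS and YY1 motifs, then the most matches, then the highest level. Matches that reach into the 50 bases after the start do not enter that choice, and over the whole window Sdhb and Uqcr11 hold both NRF1 and ETS letters, while of these 3 motifs Sdhd and Uqcrh hold ETS letters alone. Capitals mark matches to GCATGCGC (NRF1) or CCGGAAG (ETS) or to their reverse complements GCGCATGC and CTTCCGG. The Ndufa11 window is at chr17:56717512-56717761 (plus strand). The others are of minus-strand genes, Sdhd at chr9:50603850-50604099, Uqcrh at chr4:116075071-116075320, Cox6a1 at chr5:115348959-115349208 and Atp5l at chr9:44920743-44920992.
Ndufa11: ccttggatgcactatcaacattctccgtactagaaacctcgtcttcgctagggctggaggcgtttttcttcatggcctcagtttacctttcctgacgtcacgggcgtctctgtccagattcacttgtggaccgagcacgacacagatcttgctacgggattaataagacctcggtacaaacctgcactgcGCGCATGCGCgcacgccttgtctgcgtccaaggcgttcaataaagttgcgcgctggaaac
Sdhd: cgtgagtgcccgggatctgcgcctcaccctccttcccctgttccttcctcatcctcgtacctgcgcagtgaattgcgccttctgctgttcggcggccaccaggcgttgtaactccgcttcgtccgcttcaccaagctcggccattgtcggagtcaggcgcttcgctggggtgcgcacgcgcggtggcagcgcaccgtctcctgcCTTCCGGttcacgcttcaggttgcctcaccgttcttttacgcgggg
Uqcrh: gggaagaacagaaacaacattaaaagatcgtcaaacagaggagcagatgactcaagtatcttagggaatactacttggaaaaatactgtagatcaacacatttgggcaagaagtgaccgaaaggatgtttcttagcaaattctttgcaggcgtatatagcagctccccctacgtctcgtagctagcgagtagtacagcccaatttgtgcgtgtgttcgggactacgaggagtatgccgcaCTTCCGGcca
Cox6a1: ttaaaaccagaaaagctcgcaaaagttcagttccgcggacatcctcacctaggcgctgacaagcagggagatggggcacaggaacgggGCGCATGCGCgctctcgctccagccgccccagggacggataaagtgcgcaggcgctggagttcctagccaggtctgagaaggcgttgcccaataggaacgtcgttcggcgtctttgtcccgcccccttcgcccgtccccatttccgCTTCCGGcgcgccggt
Atp5l: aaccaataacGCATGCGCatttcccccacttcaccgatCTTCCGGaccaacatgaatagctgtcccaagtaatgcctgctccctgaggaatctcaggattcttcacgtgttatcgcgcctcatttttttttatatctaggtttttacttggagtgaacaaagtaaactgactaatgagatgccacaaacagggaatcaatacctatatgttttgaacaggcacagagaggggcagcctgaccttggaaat

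The run GCGCATGCGC in the Ndufa11 and Cox6a1 promoters is read as an NRF1 match on both strands. The Uqcrh and Cox6a1 windows hold an ETS match close to the gene start. NRF1 letters were in 10 of 68 member promoters (14.7%), against 5.39% of the 12086 tested genes with an entry and 3.05% of all 27025. ETS letters were in 17 (25.0%), against 18% and 9.93%. YY1 letters, AAGATGGC or GCCATCTT, were in 10 (14.7%), against 4.71% and 3.19%. Of these 10, 7 belong to complex I, which makes up 39 of the 84 members. At least 1 of these 3 motifs was in 31 member promoters (45.6%), against 25.6% and 14.9%. Letters bound by the estrogen-related receptors, AAGGTCA or TGACCTT, were in 8 (11.8%), against 4.00% and 5.38%. The hypoxia response core ACGTG or CACGT was in 17 (25.0%), against 28.4% and 21.8%. The CCAAT box (CCAAT or ATTGG) was in 42.6%, 42.7% and 41.1%, and TATAAA or TTTATA in 10.3%, 9.47% and 15.7%. None of the 7 motifs contains another. A match says that these letters are in the window, not that a factor binds there.

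**Figure D2:**
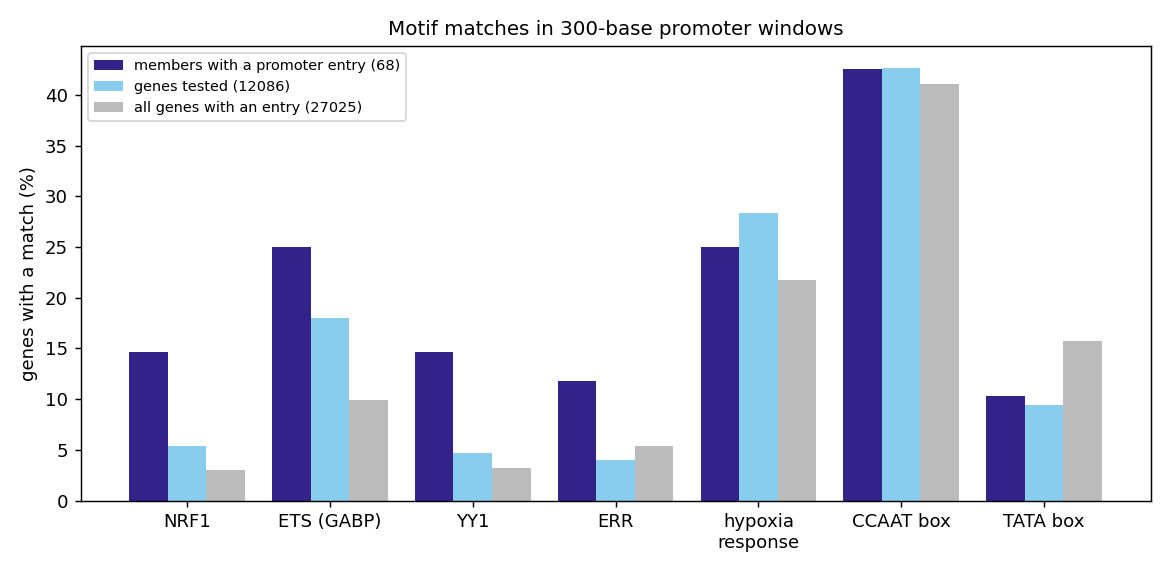
Bars give the percent of genes whose promoter window holds each motif, for the 68 members with an entry, the 12086 tested genes and all 27025 genes. Members stand above both other bars for NRF1 (14.7%), ETS (25.0%), YY1 (14.7%) and ERR (11.8%), and below the tested genes for the hypoxia response core (25.0%).

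No subunit gene passed the test between genotypes. Of the 84, 0 were called higher by the edgeR quasi-likelihood test and 0 lower, at an adjusted p under 0.05 over all 15522 tested genes, of which 0.393% were called higher and 0.908% lower. At an unadjusted p under 0.05, 0 members were higher and 6 lower (7.14%), against 8.36% and 8.88% of all genes. The 6 were Ndufa4l2, Ndufb9, Ndufv3, Cox4i2, Cox7a2l and Atp5g2. DESeq2 called 0 of 82 members with an adjusted p higher and 1 lower, Ndufa4l2, against 3.57% and 4.38% of the 13823 genes that had one. By limma-voom, likewise, 0 were higher and 1 lower, Ndufa4l2 again, against 0.683% and 1.46%.

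The median log2 fold change (cKO over control) was -0.0068 over the members and 0.0021 over all tested genes. With library sizes alone, without TMM factors, both moved up, to 0.058 and 0.067. The absolute difference between group means on log2(CPM + 0.5) had a median of 0.074 over the members, against 0.086 between the 2 controls and 0.089 between the 2 cKO libraries. It was larger than both within-group differences for 23 members (27.4%), against 37.2% of all genes. The cKO and control libraries did not overlap for 14 members that were higher in cKO (16.7%) and 20 that were lower (23.8%), against 24.9% of all genes in each direction. With library sizes alone the split was 31 higher (36.9%) and 7 lower (8.33%), against 35.0% and 16.7%, so the balance of directions rested on the scaling. All 7 genes lower by library sizes alone were also among the 20: Ndufa4l2, Ndufb9, Ndufv3, Cox7a2l, Cox4i2, Cox6a2 and Atp5g2.

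The estimated change was small for most members. The 95% intervals, like the p-values, cover only the differences among these 4 libraries, which may be technical. The log2 fold change was within 0.2 of 0, a 1.15-fold difference, for 75 members (89.3%), against 58.6% of all genes. The 95% interval lay within 0.5 of 0, a 1.41-fold difference, for 73 members (86.9%), against 51.6%, and within 1 for 79. The comparison with all genes is not matched for level, and 80 of the 84 members lie above the median level. The 5 members with wider intervals were Cox4i2, Cox6a2, Cox6b2, Cox7a1 and Cox8b, all alternative forms of complex IV subunits. Across the 84 genes, the fold change showed little relation to level (Spearman's rho = 0.03, Pearson's r = -0.15), as a description over genes that share the same 4 libraries.

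**Figure D3:**
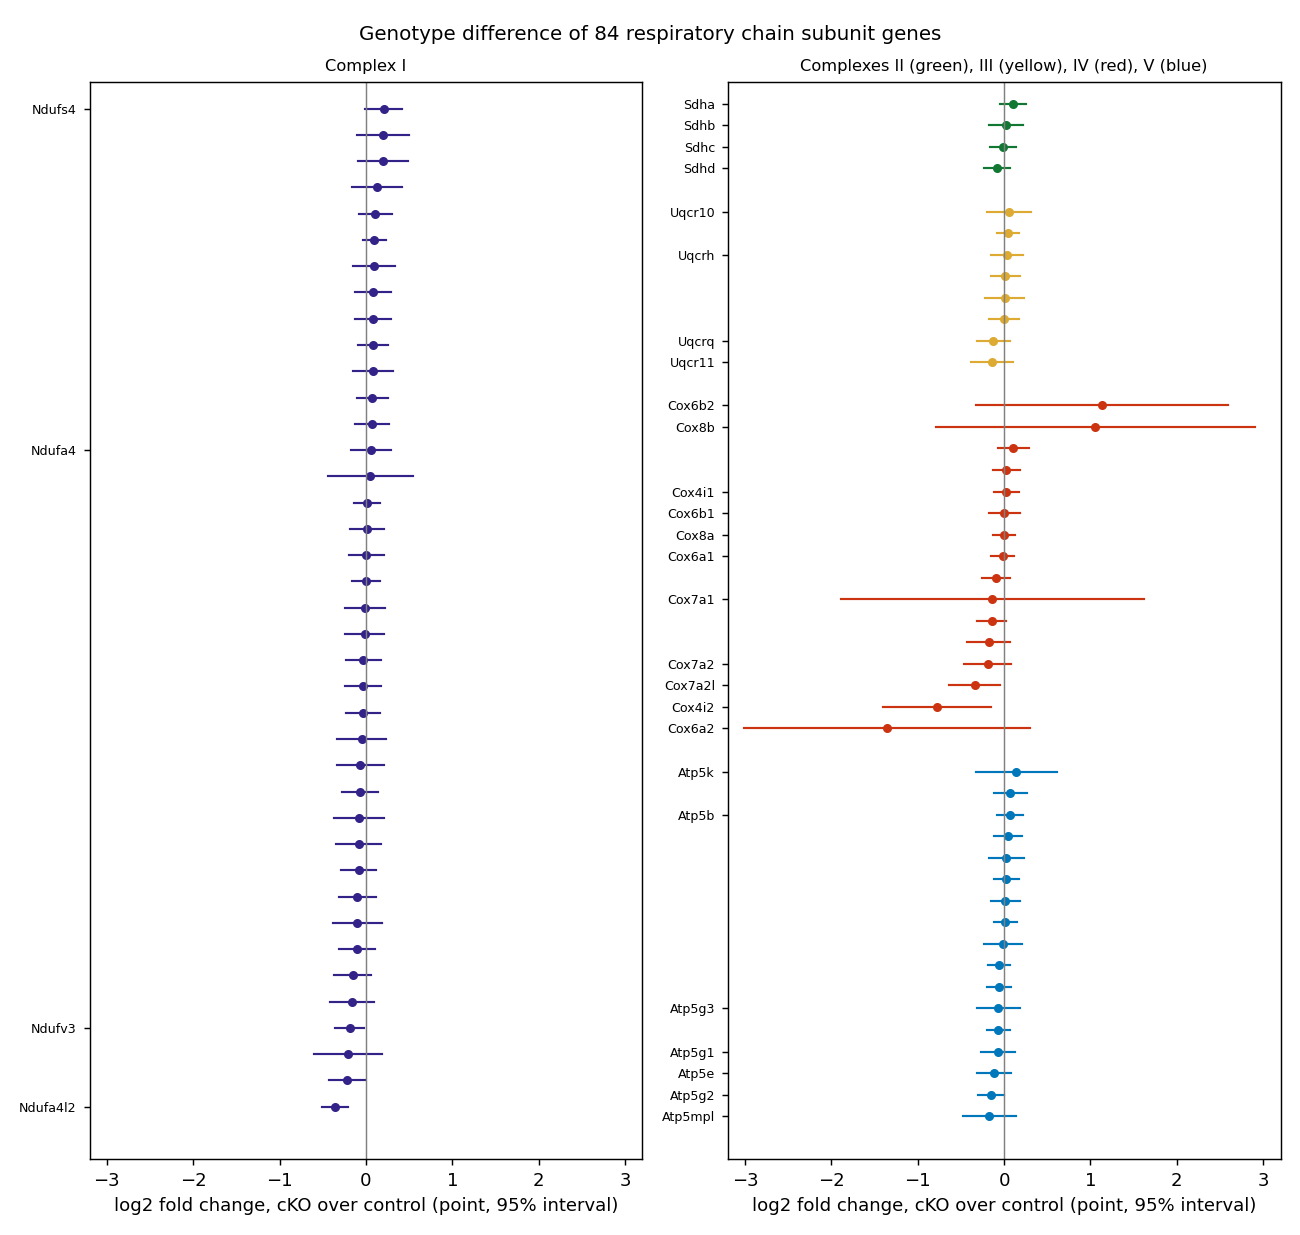
Points are log2 fold changes of cKO over control from edgeR with their 95% intervals, for complex I on the left and complexes II to V on the right, with the named members labelled. Of the 84 points, 75 lie within 0.2 of 0, and the intervals that reach beyond 1 belong to Cox4i2, Cox6a2, Cox6b2, Cox7a1 and Cox8b.

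Complex I, the NADH dehydrogenase, takes electrons from NADH through a flavin and a chain of iron-sulfur clusters. Ndufs1, which holds several of the iron-sulfur clusters, was at 80.7 and 78.3 CPM in controls against 77.1 and 83.2 CPM in cKO, and the cKO pair enclosed the control pair. Ndufv1, which carries the flavin, was at 45.9 and 46.1 CPM against 46.8 and 50.5 CPM. Over all 39 genes the median log2 fold change was -0.0100, with 19 above 0 and 20 below. The 7 core subunit genes had a median of 0.0032 and the other 32 Nduf symbols one of -0.023. Those 32 are mostly accessory subunits, but by symbol they also include Ndufa4, Ndufa4l2 and Ndufb4c, described below.

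Ndufs4, an accessory subunit whose loss causes Leigh syndrome, had the highest complex I value. It stood at 18.1 and 18.8 CPM in controls against 21.9 and 20.8 CPM in cKO, a log2 fold change of 0.21 ± 0.088 (SE; edgeR adjusted p = 0.307). Both cKO libraries lay above both controls, yet the test was not passed. At the low end, Ndufv3, which sits beside the flavin subunit, was at 55.2 and 55.3 CPM against 46.7 and 50.5 CPM (log2 fold change -0.19 ± 0.070, edgeR adjusted p = 0.249). Ndufb9, an accessory subunit of the membrane arm, was at 44.21 and 39.99 CPM against 37.2 and 35.0 CPM (-0.22 ± 0.087, edgeR adjusted p = 0.268). The X-linked members, Ndufa1, Ndufb11 and Cox7b of complex IV, had control replicate 1 between the lowest and the highest of the other libraries. Ndufa1 was at 20.0, 19.7, 20.3 and 17.2 CPM, Ndufb11 at 34.0, 31.7, 36.0 and 33.6 CPM and Cox7b at 47.0, 47.3, 43.5 and 44.7 CPM. Ndufb4c, at 240, 295, 310 and 314 counts, is a protein-coding gene in RefSeq, unlike in GENCODE, and all of its 50-base words also occur in transcripts of other genes, Ndufb4 first, so its reads cannot be told from theirs.

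The complex I symbol with the lowest p was Ndufa4l2 (ENSMUSG00000040280.10, chr10:127514967-127517154, plus strand, mm10). It is a paralog of Ndufa4 and is known to be induced by hypoxia through HIF-1 and to lower complex I activity and oxygen use. It had 24026 and 29845 counts in controls and 23080 and 24178 in cKO. That is 367 and 396 CPM (382 ± 20.1, SD, n = 2) against 298 and 298 CPM (298 ± 0.072, SD, n = 2), with both cKO libraries below both controls. The log2 fold change was -0.36 ± 0.063 (SE; 95% interval -0.51 to -0.21), a 1.28-fold lower level. The edgeR adjusted p was 0.0587, just short of the threshold, while DESeq2 gave an adjusted p of 9.29e-06 and limma-voom 0.0342. Leaving out 1 library at a time, which leaves 1 library in a group, the log2 fold change ran from -0.41 to -0.30. No 50-base word of its transcript occurs in another annotated gene. Its paralog Ndufa4, now counted as a subunit of complex IV, was at 44.1 and 37.9 CPM in controls against 42.0 and 43.4 CPM in cKO (log2 fold change 0.06 ± 0.094, edgeR adjusted p = 0.818). Per kilobase, Ndufa4l2 made up 84.5% and 87.2% of the pair in controls and 82.2% and 81.8% in cKO. The 2 cKO shares lay below both control shares, and 2 libraries against 2 cannot give an exact two-sided permutation p below 0.333.

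Complex II, succinate dehydrogenase, is encoded by nuclear genes alone and also works in the citrate cycle. Sdha, the flavin subunit, was at 232 and 221 CPM in controls against 236 and 251 CPM in cKO, a log2 fold change of 0.10 ± 0.063 (SE; edgeR adjusted p = 0.479). Sdhb, the iron-sulfur subunit, was at 39.1 and 36.0 CPM against 38.5 and 37.6 CPM, so the cKO pair lay inside the control pair. The membrane anchors were Sdhc, at 62.0 and 60.0 CPM against 59.2 and 61.8 CPM, and Sdhd, at 81.4 and 76.4 CPM against 73.0 and 75.5 CPM. With TMM scaling the groups did not overlap for Sdha (higher) and Sdhd (lower, log2 fold change -0.09), beside 24.9% of all genes in each direction. With library sizes alone they did not overlap for Sdha and Sdhb, both higher, and overlapped for Sdhd. All 4 intervals lay within 0.5 of 0, and the median was 0.0033.

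Complex III is the cytochrome bc1 complex, which pumps protons as it oxidises ubiquinol. Its 8 genes had log2 fold changes from -0.14 to 0.06 with a median of 0.0102, and all 8 intervals lay within 0.5 of 0. The core proteins Uqcrc1 and Uqcrc2 and the Rieske iron-sulfur protein Uqcrfs1 had values of 0.05, -0.0019 and 0.0052. Uqcrc1 was at 96.5 and 94.8 CPM in controls against 98.1 and 99.5 CPM in cKO. Uqcrh, the hinge protein that helps dock cytochrome c and the highest of the group per kilobase, was at 74.2 and 65.6 CPM against 70.3 and 72.6 CPM. Uqcr10, a small membrane subunit, had the highest value, 0.06, at 31.8 and 36.3 CPM against 37.5 and 33.2 CPM. Uqcr11 had the lowest value, -0.14 ± 0.099 (SE; edgeR adjusted p = 0.527), at 24.0 and 21.6 CPM against 21.5 and 19.9 CPM. Uqcrq, a subunit next to cytochrome b, followed at -0.12 ± 0.080, at 64.0 and 56.0 CPM against 54.5 and 55.5 CPM. Both values rested on control replicate 1: without it Uqcr11 was at -0.06 and Uqcrq at -0.03, and without control replicate 2 both were at -0.22. The difference between the 2 controls in complex III genes had a median of 0.162 on the log2 scale, larger than the 0.040 between genotypes.

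Complex IV, cytochrome c oxidase, held the widest values, and these lay in its alternative forms. The 10 common forms had log2 fold changes from -0.19 to 0.11 with a median of -0.011. Cox4i1, the common form of subunit IV, was at 174 and 175 CPM in controls against 184 and 171 CPM in cKO. Cox6a1 was at 115 and 113 CPM against 113 and 112 CPM, Cox8a at 102 and 100 CPM against 100 and 102 CPM, and Cox6b1 at 62.7 and 62.8 CPM against 66.6 and 59.0 CPM. With TMM scaling, for none of these 4 was the genotype difference larger than the spread between libraries. With library sizes alone, both cKO libraries lay above both controls for Cox4i1, Cox6a1 and Cox8a, beside 35.0% of all genes. Cox7a2, the liver-type form of subunit VIIa, was at 42.0 and 34.3 CPM against 32.9 and 33.8 CPM (log2 fold change -0.19 ± 0.11, edgeR adjusted p = 0.452), and without control replicate 1 its value was -0.04. Over the 16 genes the median was -0.0565, against 0.0021 for all tested genes. With library sizes alone it was 0.0083, against 0.067 for all tested genes.

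Cox4i2, the form of subunit IV known to replace Cox4i1 under low oxygen and abundant in lung, lies at chr2:152754173-152765037 (mm10, plus strand). It had 961 and 1213 counts in controls and 890 and 527 in cKO. Scaled, it was at 14.7 and 16.1 CPM (15.4 ± 0.98, SD, n = 2) against 11.5 and 6.48 CPM (8.98 ± 3.5, SD, n = 2). The cKO libraries were lower than both controls and differed from each other by more than the controls did. The log2 fold change was -0.78 ± 0.26 (SE; 95% interval -1.40 to -0.15), with an edgeR adjusted p of 0.20. The value rested on which cKO library was used: -1.25 without cKO replicate 1 and -0.42 without cKO replicate 2, each from 1 cKO library. Per kilobase, Cox4i2 made up 8.15% and 8.82% of subunit IV transcripts in controls and 6.15% and 3.83% in cKO.

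Cox6a2, the heart and muscle form of subunit VIa, had the lowest fold change of all members on few counts. It had 120 and 176 counts in controls and 104 and 24 in cKO, a log2 fold change of -1.35 ± 0.68 (SE; edgeR adjusted p = 0.385). Again the second cKO library was the low one, and the value was -2.82 without cKO replicate 1 and -0.64 without cKO replicate 2, each from 1 cKO library. The muscle markers had summed levels of 4.14 and 24.3 CPM in controls against 40.8 and 8.54 CPM in cKO, with 0 of 8 tested called by edgeR (0 at an unadjusted p under 0.05, 0 by DESeq2 and by limma-voom), and their part in the Cox6a2 value was not tested. Cox6a1 supplied 98.7% and 98.3% of the family per kilobase in controls and 99.0% and 99.8% in cKO.

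Cox7a2l, also called SCAFI, is known to join complexes III and IV into supercomplexes. It was at 114 and 89.7 CPM in controls against 85.0 and 75.5 CPM in cKO, a log2 fold change of -0.34 ± 0.12 (SE; edgeR adjusted p = 0.227). The cKO values lay below both controls, but control replicate 1 stood well above control replicate 2, and without control replicate 1 the value was -0.16, with -0.50 without control replicate 2. Of its 50-base words, 19.8% also occur in another annotated gene. Cox7a1, the muscle form, was at 0.25 to 0.32 CPM over the 4 libraries.

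The 2 members above a log2 fold change of 1 had few counts. Cox6b2, known as the testis form of subunit VIb, had 50 and 22 counts in controls and 77 and 107 in cKO (log2 fold change 1.13 ± 0.60, edgeR adjusted p = 0.406), and its value was 1.98 without control replicate 1 and 0.59 without control replicate 2. Cox8b, the muscle and brown fat form of subunit VIII, had 10 and 19 counts against 41 and 26 (1.06 ± 0.76, edgeR adjusted p = 0.545), and its value was 0.65 without cKO replicate 1 and 1.46 without control replicate 2. In both, the cKO libraries were above the controls and the interval spanned 0. Brown and beige fat markers had summed levels of 10.1 and 13.3 CPM in controls against 14.3 and 20.0 CPM in cKO. Most of each sum was Dio2, at 7.48 and 8.71 CPM against 10.4 and 16.5 CPM. Ppara had a log2 fold change of 0.06 and Cidea of -0.10, Elovl3 had 4, 0, 0 and 0 counts, and Ucp1 had 0 counts in all 4 libraries. Of the 3 tested, 0 were called by edgeR, DESeq2 or limma-voom, and 1 was higher at an unadjusted edgeR p under 0.05, against 8.36% of all tested genes. Adipocyte markers summed to 201.8 and 206.6 CPM against 292.6 and 466.1 CPM, with 7 of 7 tested genes above 0 on the log2 scale and Lep at 0 counts. Of them, 0 were called by edgeR and 0 by limma-voom. At an unadjusted edgeR p under 0.05, 4 were higher, and 3 were higher by DESeq2, against 8.36% and 3.57% of all genes. The part of these fat markers in the Cox8b value was not tested.

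**Figure D4:**
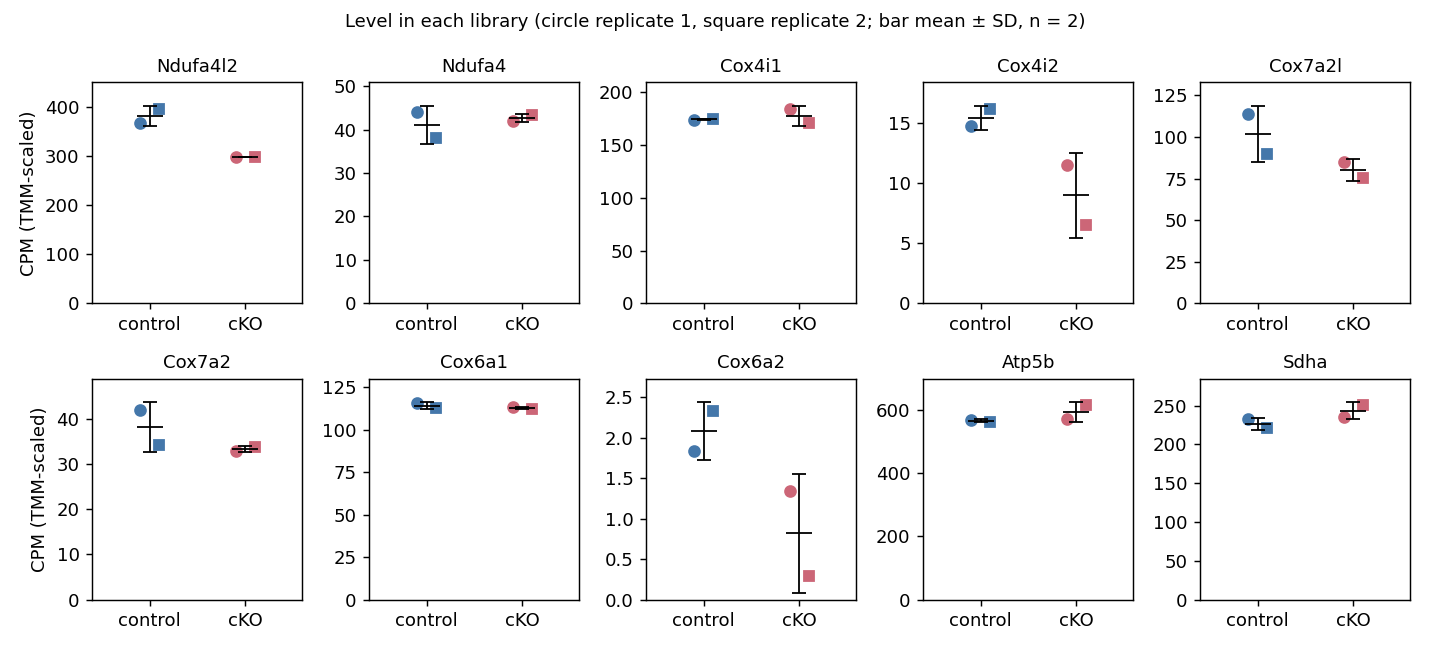
Circles are replicate 1 and squares replicate 2 of each group, on a linear CPM axis that starts at 0, with bars for the mean and SD (n = 2). With the TMM scaling shown, Ndufa4l2, Cox4i2, Cox7a2l, Cox7a2 and Cox6a2 lie lower in both cKO libraries than in both controls, and Atp5b and Sdha higher. The groups overlap for Cox4i1, Cox6a1 and Ndufa4, and cKO replicate 2 is the lower cKO library for Cox4i2 (6.48 CPM). With library sizes alone (not shown), the groups overlap for Cox7a2, and Cox4i1 and Cox6a1 lie higher in both cKO libraries.

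Complex V, ATP synthase, had the highest median level per kilobase. Its 17 genes had log2 fold changes from -0.17 for Atp5mpl to 0.14 for Atp5k, with a median of -0.018 and all within 0.2 of 0. In the catalytic head, Atp5b, the beta subunit that holds the catalytic sites, was at 568 and 561 CPM in controls against 571 and 614 CPM in cKO (log2 fold change 0.07 ± 0.061, edgeR adjusted p = 0.634). Atp5a1, the alpha subunit, was at 492 and 470 CPM against 474 and 515 CPM, and Atp5e, the epsilon subunit, at 31.8 and 32.5 CPM against 28.8 and 30.4 CPM. The 4 genes of the peripheral stalk, which holds the head still against the rotor, lay between 0.01 and 0.07.

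The rotor's c ring is built from 1 mature protein that 3 genes encode. Atp5g2 was at 59.1 and 58.2 CPM in controls against 52.5 and 53.1 CPM in cKO, a log2 fold change of -0.15 ± 0.060 (SE; edgeR adjusted p = 0.275). The 2 groups did not overlap, but 87.4% of the gene's 50-base words also occur in other annotated genes. Atp5g1 was at 45.7 and 41.3 CPM against 41.5 and 41.1 CPM, and Atp5g3 at 87.9 and 80.5 CPM against 72.7 and 88.1 CPM, with overlapping groups. Summed, the 3 genes were at 192.8 and 179.9 CPM against 166.6 and 182.4 CPM, and no difference between genotypes larger than the replicate spread was seen. Of the membrane accessory subunits, Atp5mpl was at 28.4 and 25.2 CPM against 21.5 and 26.2 CPM, with a log2 fold change of -0.04 without cKO replicate 1 and -0.32 without cKO replicate 2. Atp5k, which helps ATP synthase form dimers, was at 9.36 and 7.15 CPM against 8.14 and 10.1 CPM.

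No gene of the lists that build, feed and regulate the chain passed the edgeR test. These lists were written from known function, but with earlier results of these data known. By edgeR 0 of 15 complex I assembly factors were called, 0 of 4 for complex II, 0 of 7 further complex III genes (core and assembly), 0 of 21 for complex IV and 0 of 3 for complex V. At an unadjusted p under 0.05, 8.36% of all tested genes were higher and 8.88% lower. DESeq2 called 4.38% of the genes with an adjusted p lower, and these shares apply to every list of this paragraph. Among the lists above, 1 complex I assembly factor was higher and 2 complex IV factors were lower at an unadjusted p under 0.05. DESeq2 and limma-voom called 0 in these lists. Cox18, which inserts a mitochondrially made complex IV subunit into the membrane, had the lowest value among them, -0.47 ± 0.12 (SE; edgeR adjusted p = 0.129), at 12.7 and 14.3 CPM in controls against 9.65 and 9.97 CPM in cKO. Cytochrome c itself, Cycs, was at 65.2 and 66.5 CPM against 60.0 and 68.7 CPM. The citrate cycle and pyruvate dehydrogenase genes gave 0 of 17 called by edgeR (1 higher at an unadjusted p under 0.05), with a median of 0.056 and 13 above 0. Of 14 regulators, 0 were called by edgeR, 0 at an unadjusted p under 0.05 and 0 by DESeq2 and limma-voom: the coactivator Ppargc1a was at 35.2 and 26.8 CPM against 32.6 and 36.5 CPM, Nrf1 at 21.2 and 25.1 against 22.6 and 25.1 CPM, and Tfam, which packs and transcribes mitochondrial DNA, at 24.24 and 23.89 CPM against 22.04 and 23.23 CPM. Mitochondrial ribosomal proteins gave 0 of 78 called by edgeR (2 higher and 2 lower at an unadjusted p under 0.05) and a median of -0.042. Outer membrane and transport genes gave 0 of 12 called by edgeR (2 lower at an unadjusted p under 0.05, 1 lower by DESeq2), and Vdac1, the main outer membrane channel, was at 219 and 228 CPM against 191 and 192 CPM (-0.22 ± 0.055, edgeR adjusted p = 0.116).

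Of 12 hypoxia-responsive glycolysis genes tested, 3 were called lower by edgeR and 0 higher, against 0.908% and 0.393% of all tested genes. The count depended on the tool, with 12 lower by DESeq2, 7 by limma-voom and 12 at an unadjusted edgeR p under 0.05. The shares of all genes were 4.38%, 1.46% and 8.88%. The 3 called by edgeR were Slc2a1, a glucose transporter, Pfkfb3, which makes an activator of phosphofructokinase, and Bnip3, a mitophagy receptor. This list, too, was chosen with earlier results of these data known. Whether the list differs from the subunit genes was not tested. Slc2a1 was at 624 and 664 CPM in controls against 455 and 375 CPM in cKO, a log2 fold change of -0.64 ± 0.099 (SE; edgeR adjusted p = 0.0472). All 12 values were below 0, with a median of -0.28, beside 0.0021 for all tested genes and -0.0068 for the 84 subunit genes. Pdk1, a kinase that keeps pyruvate out of the citrate cycle, was at 219 and 237 CPM against 183 and 173 CPM (-0.35 ± 0.066, edgeR adjusted p = 0.0676). Ndufa4l2, with -0.36, lay within the range of this list (-0.64 to -0.18), and Cox4i2, with -0.78, below it. With library sizes alone the median of the list was -0.22 and 0 of 12 were above 0.

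**Figure D5:**
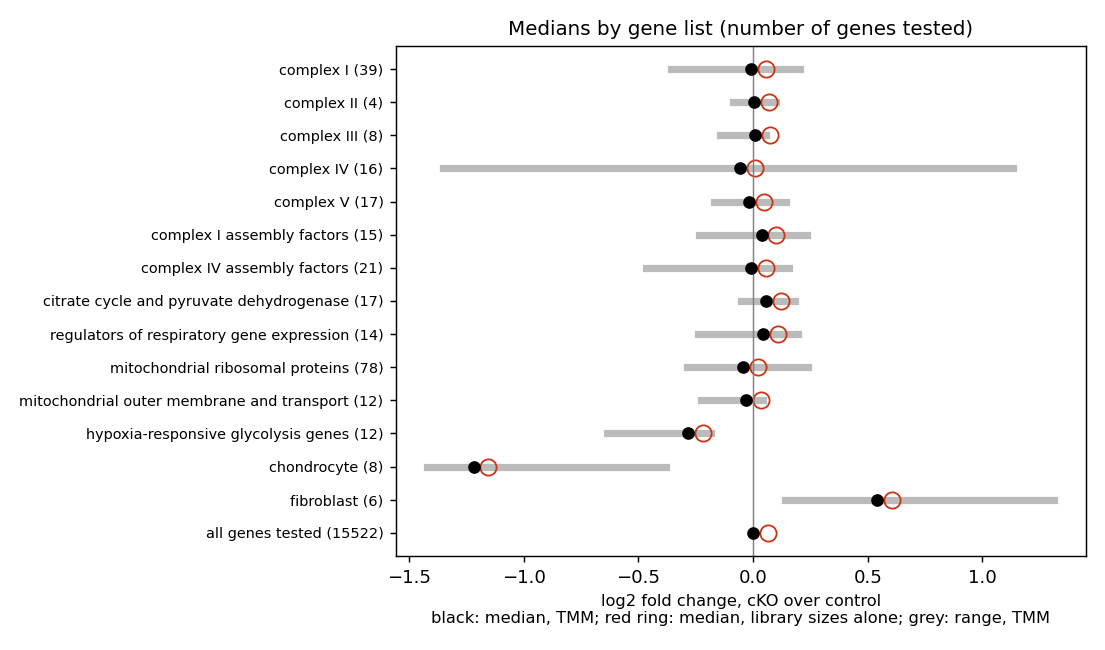
Black points are median log2 fold changes (cKO over control) of each gene list with TMM scaling, red rings the same with library sizes alone, and grey bars the range of the TMM values, with the number of genes tested in brackets. The medians of complexes I to V lie between -0.0565 and 0.0102, near that of all tested genes (0.0021). Hypoxia-responsive glycolysis genes have a median of -0.28 and chondrocyte markers of -1.22. The lists were chosen with earlier results of these data known.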

How the data were processed

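The authors deposited whole-number read counts per gene symbol for 4 poly(A) RNA-seq libraries. The submitters' processing notes name mm10, HISAT2 2.2.1, StringTie 2.1.7, Trim Galore 0.6.7 and FastQC 0.11.9. The sources used here do not name a counting tool, a strand setting or an annotation (not given in the sources used here). Of counts from 1 to 40, 28.1% to 30.0% per library were multiples of 4, with 288 to 321 genes at 4 against 113 to 156 at 5, so dividing all counts by 4 was one alternative.

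Members and gene lists were chosen with earlier results of these data known. Counts were tested with edgeR 4.0.16 (R 4.3.3; quasi-likelihood, TMM, filterByExpr with a minimum count of 10, Benjamini-Hochberg over 15522 genes, threshold 0.05) on 2 control and 2 cKO libraries without a block, and the fit was tested on simulated data. The estimated biological coefficient of variation was 0.174. A standard error (SE) is the log2 fold change divided by the square root of F, with 95% t intervals. Alternatives used DESeq2 1.42.0, limma-voom (limma 3.58.1), library sizes alone, other count filters, a replicate block, each library left out, and other member assignments. Summaries were made with Python 3.11.15. CPM are TMM-scaled unless stated.

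GENCODE M21 (mm10) held 24366 symbols (96.5%). Representative transcripts match RefSeq and were chosen after per-kilobase levels had been seen, which touches only those levels and isoform shares. Named members are those called, and in each complex the highest per kilobase, the highest and lowest fold change and the 2 smallest p-values, with isoform families, the Sdh genes, members beside the count minimum, and leading genes of other lists. Outside that rule, and chosen after their values were seen, are Ndufb9, Ndufb4c, Ndufs1, Ndufv1, the complex III core genes, the X-linked members, Atp5a1, Cycs, Ppargc1a, Nrf1, Tfam and Pdk1. Promoters shown were chosen by their motifs, not by expression change. The individual result of 1 member is not reported here.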

Additional observations from a re-analysis of the deposited data

How the results depend on the processing

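With 2 libraries per group, only large or precise differences can pass. No member was called higher in any alternative. Members called lower numbered 0 in the edgeR fit and 1 by DESeq2, 1 by limma-voom and 1 with counts divided by 4 (Ndufa4l2 each time), and 0 to 3 with 1 library left out, where the 3 without cKO replicate 1 were Ndufa4l2, Cox4i2 and Cox6a2. With library sizes alone the median log2 fold change was 0.0582 over all members and 0.0552, 0.0680, 0.0750, 0.0083 and 0.0472 in complexes I to V, against -0.0068 and -0.0100, 0.0033, 0.0102, -0.0565 and -0.0177 with TMM. Over all tested genes it was 0.067 with library sizes alone, against 0.0021 with TMM. Leaving out 1 library gave -0.0380 to 0.0039 over all members, -0.0272 to 0.0253 in complex I, -0.0380 to 0.0460 in II, -0.0258 to 0.0396 in III, -0.0635 to -0.0193 in IV and -0.0647 to 0.0234 in V, so that all but that of complex IV changed sign. Counting Cox7c-ps1, an alternative chosen after seeing the data, moved complex IV to -0.0182. Of 358 alternatives for 30 named members, 330 kept direction and side of the threshold, 21 changed sign and 7 passed the threshold, and 12 members changed sign somewhere, all 12 within 0.2 of 0 in the edgeR fit. With library sizes alone Sdhc was 0.0514, Cox6a1 0.0465 and Cox8a 0.0611, and Cox6b1 was -0.0022 by limma-voom. Leaving out 1 library gave Ndufa4 -0.0485 to 0.1693, Sdhc -0.0441 to 0.0153, Sdhb -0.0389 to 0.0815, Uqcrh -0.0545 to 0.1222, Uqcr10 -0.0381 to 0.1552, Cox8a -0.0178 to 0.0106, Cox6b1 -0.0897 to 0.0866, Cox4i1 -0.0307 to 0.0798, Atp5g1 -0.1474 to 0.0011, Atp5g3 -0.2108 to 0.0634 and Atp5k -0.0398 to 0.3485. The members named outside the rule were not among the 30. Of them, with 1 library left out, Ndufs1 ran from -0.0427 to 0.0632, Ndufa1 from -0.2076 to 0.0304, Uqcrc2 from -0.0858 to 0.0762 and Uqcrfs1 from -0.1026 to 0.1213. Ndufb9, Ndufb4c, Ndufv1, Ndufb11 and Uqcrc1 kept their sign in these fits. The cause of these moves was not tested. Same-numbered libraries deviated with a correlation of -0.122, so the numbers are not shown to pair samples. With the replicate block 0 members were called lower, the median over all members was -0.0063 and Cox6b1 was -0.0011. With the crossed replicate block, chosen after seeing the data, 1 member was called lower and Cox6b1 was -0.0008.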
